A study of Homo sapiens with 48 samples.

Results

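The genes described here are the ZNF genes, named for the zinc fingers of their proteins, that are expressed in THP-1, a line of monocyte-like cells from a human acute leukemia. The count files list 24462 gene symbols, and 529 of them consist of ZNF, a number and at most 1 further letter. The 218 with a mean of at least 10 CPM (counts relative to library size, here the raw total) over the 12 untreated and vehicle libraries were taken. They were thus selected on their levels in the controls, which are given below only as a description.

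The cells had been exposed for 12 h to 1 of 12 chemicals, with 3 libraries each. These were mercuric chloride, LPS (lipopolysaccharide, from the outer membrane of bacteria), dexamethasone and prednisolone (both glucocorticoids), the JAK inhibitor tofacitinib, the calcineurin inhibitors cyclosporine and tacrolimus, the nucleoside analogues aciclovir and ribavirin, the isoflavone genistein, the detergent sodium lauryl sulfate and the preservative benzoic acid. The controls were 6 vehicle libraries, from cells given dimethyl sulfoxide (DMSO), and 6 untreated libraries. Each kind of control comes as series 1 and series 2 of 3 libraries each, and the labels do not tie a treatment to a series. The titles give 0.1, 0.2 and 0.3% DMSO in series 1 and 0.4, 0.5 and 0.6% in series 2, whereas the protocol gives 0.1%. Each chemical was used at its CV90, a concentration set by cell viability, and no concentration is stated in the labels. All groups share 1 cell line, with no genetic change between them.

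Zinc finger proteins of this family bind DNA, and some bind RNA, through repeated fingers that each hold a zinc ion between a pair of cysteines and a pair of histidines (the C2H2 type). Many of them also carry a KRAB domain, which recruits the corepressor TRIM28 and, through it, the histone methyltransferase SETDB1, so that the bound DNA is silenced. Many human KRAB zinc finger genes lie in clusters on chromosome 19 that arose by duplication, and transposable elements are well-known targets of their proteins. Other ZNF genes encode proteins that act on ribosomes, RNA or the mitotic spindle.

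Start site windows are printed for the 5 members on which the mercuric chloride results turn, namely the 3 largest rises (ZNF697, ZNF669 and ZNF267), the largest fall (ZNF217) and ZNF670, the neighbour of ZNF669 that fell. They are 300-base sequences from RefSeq on GRCh38.p14, each read 5′ to 3′ on the strand of its gene. They are chr1:119648217-119648516 (minus strand) for ZNF697, chr1:247104307-247104606 (minus strand) for ZNF669, chr1:247078762-247079061 (minus strand) for ZNF670, chr16:31873557-31873856 (plus strand) for ZNF267 and chr20:53593790-53594089 (minus strand) for ZNF217. Capitals mark matches on either strand to 3 sets of letters, which are GAANNTTC (a pair of heat shock element units), TGCGCNC or TGCACNC (the core of the metal response element) and CCAAT (the CCAAT box).
ZNF697: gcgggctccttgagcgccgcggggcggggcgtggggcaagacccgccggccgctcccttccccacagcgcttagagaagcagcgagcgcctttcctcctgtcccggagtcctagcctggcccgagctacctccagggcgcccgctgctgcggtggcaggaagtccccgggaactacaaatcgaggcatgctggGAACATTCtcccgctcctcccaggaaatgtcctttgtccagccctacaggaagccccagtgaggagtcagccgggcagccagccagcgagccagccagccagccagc
ZNF669: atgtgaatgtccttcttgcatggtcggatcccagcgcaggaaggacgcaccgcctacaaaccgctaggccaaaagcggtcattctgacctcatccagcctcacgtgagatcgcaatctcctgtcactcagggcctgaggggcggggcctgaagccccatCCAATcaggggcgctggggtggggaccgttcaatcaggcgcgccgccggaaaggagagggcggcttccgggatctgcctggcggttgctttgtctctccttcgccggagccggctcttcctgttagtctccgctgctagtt
ZNF267: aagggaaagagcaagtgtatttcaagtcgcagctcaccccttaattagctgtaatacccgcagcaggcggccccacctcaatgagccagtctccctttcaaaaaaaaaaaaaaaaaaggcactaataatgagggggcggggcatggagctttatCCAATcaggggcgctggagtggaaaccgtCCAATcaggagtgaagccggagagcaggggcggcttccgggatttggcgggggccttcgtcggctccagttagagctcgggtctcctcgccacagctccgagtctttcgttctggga
ZNF670: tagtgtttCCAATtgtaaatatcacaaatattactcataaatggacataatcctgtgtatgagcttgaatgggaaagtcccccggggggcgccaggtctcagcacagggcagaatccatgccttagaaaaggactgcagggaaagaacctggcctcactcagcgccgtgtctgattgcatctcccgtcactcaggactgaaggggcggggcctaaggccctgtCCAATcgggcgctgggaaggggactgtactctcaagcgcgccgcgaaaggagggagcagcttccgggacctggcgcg
ZNF217: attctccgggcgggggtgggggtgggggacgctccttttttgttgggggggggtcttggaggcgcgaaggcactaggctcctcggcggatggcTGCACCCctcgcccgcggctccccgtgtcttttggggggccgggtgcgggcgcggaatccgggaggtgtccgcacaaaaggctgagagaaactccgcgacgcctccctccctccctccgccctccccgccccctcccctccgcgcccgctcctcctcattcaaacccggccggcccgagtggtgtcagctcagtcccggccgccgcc

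The ZNF697 window held 1 heat shock pair, a motif present in 6.77% of 35116 start site windows of all genes and in 5.79% of 242 windows that belong to 186 members. The ZNF217 window held 1 metal response core, found in 29.6% of all windows and 42.6% of the members' windows. CCAAT was in the windows of ZNF669, ZNF670 and ZNF267, in 34.6% of all windows and in 41.7% of the members' windows. The matches do not overlap in these 5 windows, and a match is a description, not a bound site. ZNF669 and ZNF267 shared a run of 19 bases that includes CCAAT, atccaatcaggggcgctgg. That run was present in 6 windows of 6 genes, 5 of them ZNF genes and 3 of them members. The third of these members was ZNF627, for which mercuric chloride gave a log2 fold change of -0.84 against vehicle, while both other members rose.

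Across the 12 control libraries the members had a median of 22.1 CPM of raw totals, and 36 reached 50 CPM. The highest were ZNF451 (214 CPM), a SUMO ligase, ZNF106 (211 CPM), an RNA-binding protein, and ZNF292 (188 CPM). ZNF24 (185 CPM), a repressor with a SCAN domain, and ZNF638 (164 CPM), which binds RNA and DNA in the nucleus, followed. These levels are not scaled to transcript length, so their order need not be one of transcript number. Just inside the limit lay ZNF747 (10.09 CPM), ZNF805 (10.08 CPM) and ZNF350 (10.03 CPM), and just outside it ZNF680 (9.99998 CPM), ZNF394 (9.84 CPM) and ZNF776 (9.71 CPM). Of the other ZNF symbols, 99 were under 1 CPM, 3 of them without a count in any library. All 218 members passed the filter on low counts for the fit of 15642 genes.

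A search of the GENCODE v29 proteins found the C2H2 pattern in the proteins of all but 8 members. No match was found for ZNF330, ZNF503, ZNF703, ZNF720, ZNF738 and ZNF839, and no protein is annotated for ZNF252P and ZNF271P. A KRAB pattern was found in 107 of 216 proteins. Proteins with it had a median of 12 C2H2 patterns and those without it a median of 6, and the highest number was 31, in ZNF91 with the KRAB pattern and in ZNF142 without it. Chromosome 19 holds 83 members, 66 of them with the KRAB pattern. The search rests on letters alone, so a protein without the pattern may still hold a KRAB domain. Among the members, 10 share over 20% of their 50-base stretches with other genes, so that reads of these genes may be split or lost in counting. One of them is ZNF395, which shares 32.9% with the overlapping gene FBXO16.

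The 48 libraries held 5952817 to 11496950 counts, and the mercuric chloride libraries were the shallowest at 5952817 to 6958111 counts, against 8641726 to 10925997 counts in the vehicle libraries. All 10 monocyte markers had counts, although CD14 was low, at 0.504 to 6.25 CPM. Their summed level was 787 to 829 CPM with mercuric chloride, against 1360 to 1687 CPM with vehicle. Mercuric chloride libraries had counts in 18600 to 18989 symbols, against 16729 to 16998 with vehicle. They also held more counts of 5 fibroblast markers, with 29.6 to 33.6 CPM in sum (4 of 5 with counts, COL3A1 at 0). With vehicle the sum was 0.183 to 1.14 CPM, and COL1A2 was at 0. Most of the sum with mercuric chloride came from COL1A1, which reached 31.6 CPM. Of the other fibroblast markers DCN reached the most in any library, at 4.98 CPM. The 5 epithelial markers summed to 1.85 to 17.0 CPM with mercuric chloride, all with counts, against 0.63 to 1.74 CPM with vehicle (KRT19 and CDH1 at 0). The 5 B cell markers summed to 12.5 to 14.8 CPM with mercuric chloride and 13.7 to 21.4 CPM with vehicle (MS4A1 at 0). The 6 T cell markers summed to at most 1.91 CPM in any library, with CD3E and TRAT1 at 0 in all. The part of these differences in the results below was not tested. Dexamethasone replicate 3 stood apart with counts in 15527 symbols, the fewest of the 48 libraries, and results that rest on it are given with and without it.

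The members' median lay lower than vehicle with mercuric chloride, and close to vehicle with the other 11 treatments. A gene is said to have risen, fallen or been called where edgeR's quasi-likelihood test gave a Benjamini-Hochberg adjusted p under 0.05 over all 15642 genes against both vehicle series in the same direction. Fold changes are log2 values of treatment over vehicle, as the mean over both series, and CPM from here on are scaled by TMM, which balances composition between libraries. With mercuric chloride the median of the members was -0.25, and 147 of 218 values were below 0. The median was -0.01 over all genes and -0.16 over the 9242 genes that reach the same 10 CPM in the controls, the members among them. The medians with the other treatments lay between -0.07 (dexamethasone) and 0.03 (sodium lauryl sulfate, benzoic acid). All of these comparisons share the 6 vehicle libraries. Of the members, 114 were called in no treatment, 89 in 1, 12 in 2, 1 in 3 and 2 in 4. Of all genes 50.6% were called in no treatment, 39.2% in 1, 7.17% in 2, 2.04% in 3 and 0.678% in 4.

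**Figure D1:**
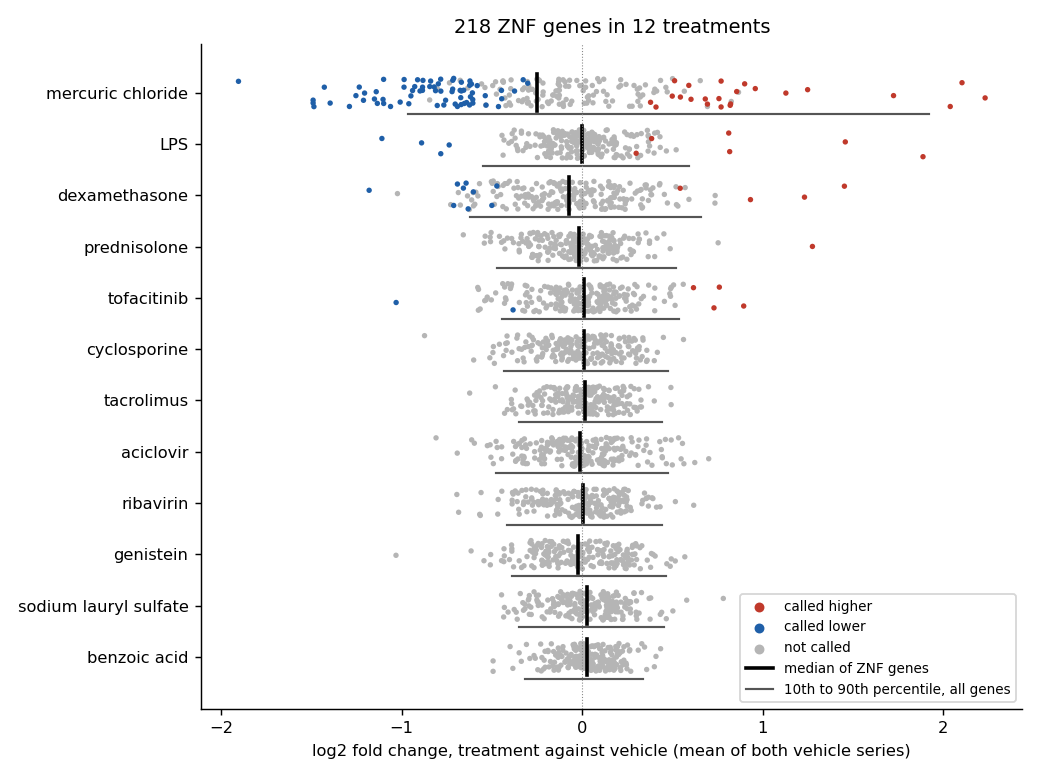
Log2 fold change of each of the 218 ZNF genes (points) in each of 12 treatments against vehicle, on a horizontal log2 axis, with red and blue points for genes called higher and lower. Black bars give the median of the ZNF genes, at -0.25 with mercuric chloride and between -0.07 and 0.03 elsewhere, and grey lines the range from the 10th to the 90th percentile of all genes tested.

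Mercuric chloride lowered 71 members and raised 23. These are 32.6% lowered and 10.6% raised, beside 20.1% of all genes called lower and 21.8% called higher. The members were taken for their level in the controls, however, and all genes were under no such limit. Among the 9242 genes that reach 10 CPM, 29.8% were lower and 18.1% higher. The share of members lowered was thus near that of genes at 10 CPM or more. Here and below, that set has only a lower limit and was not matched to the members' levels. Whether the remaining differences exceed chance was not tested. The fit scaled mercuric chloride libraries by factors of 0.752 to 0.772, against 0.978 to 1.03 for vehicle. Scaled by raw totals instead, the median of all genes was -0.41 and that of the members -0.65, with 126 members lower and 11 higher. All 71 falls and 11 of the 23 rises were among those calls. In raw totals the 218 members took 0.528 to 0.549% of the counts with mercuric chloride, against 0.735 to 0.79% with vehicle.

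The largest rises were above 4-fold. ZNF697 had 46.4, 41.4 and 47.5 CPM with mercuric chloride, against 9.38, 8.71 and 9.88 CPM in vehicle series 1 and 10.5, 10.2 and 8.92 CPM in vehicle series 2. ZNF669, a KRAB gene, had 66.5, 61.9 and 47.3 CPM with mercuric chloride, against 14.6, 11.9 and 16.6 CPM in vehicle series 1 and 12.0, 11.2 and 15.5 CPM in series 2. ZNF267, another KRAB gene, had 177, 156 and 159 CPM with mercuric chloride, against 40.8, 38.1 and 34.2 CPM in vehicle series 1 and 38.8, 43.1 and 44.7 CPM in series 2. In each of these genes the lowest mercuric chloride library lay far above the highest vehicle library. The log2 fold changes were 2.23 ± 0.15 for ZNF697 (SE, adjusted p = 2.96e-14), 2.10 ± 0.14 for ZNF669 (adjusted p = 6.34e-14) and 2.04 ± 0.09 for ZNF267 (adjusted p = 4.69e-20). These are the genes whose start site windows are printed above.

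ZNF385C and ZNF385A encode related proteins with matrin-type fingers, and both rose. ZNF385C had 87.2, 80.4 and 61.5 CPM with mercuric chloride, against 22.4, 22.3 and 21.4 CPM in vehicle series 1 and 25.8, 21.4 and 25.4 CPM in series 2 (log2 fold change 1.72 ± 0.12, adjusted p = 1.06e-13). ZNF385C overlaps NKIRAS2 on the opposite strand, and since the strand of counting is not given in the sources used here, reads of these genes cannot be told apart. ZNF385A, a p53-associated regulator, had 31.8, 28.3 and 24.97 CPM, against 14.3 to 15.8 CPM over the 6 vehicle libraries (0.90 ± 0.13, adjusted p = 9.34e-06). Neither gene's libraries overlapped those of vehicle. ZNF804A, a gene known from schizophrenia genetics, had 47.1 to 56.6 CPM with mercuric chloride, against 19.2 to 29.5 CPM with vehicle (1.13 ± 0.13, adjusted p = 1.86e-06). An unnamed gene overlaps it on the opposite strand. ZNF805, ZNF791 and ZNF562 are KRAB genes, and their log2 fold changes were 1.25 ± 0.19, 0.96 ± 0.14 and 0.86 ± 0.13. ZNF562 lost its call with raw totals, where its value was 0.46. ZNF622, the human counterpart of the yeast ribosome maturation factor Rei1, rose by 0.82 ± 0.11 (adjusted p = 2.92e-06).

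The deepest fall was in ZNF217, a zinc finger protein of corepressor complexes that is amplified in some cancers. It had 11.3, 15.5 and 15.3 CPM with mercuric chloride, against 58.9, 67.4 and 72.6 CPM in vehicle series 1 and 38.4, 43.2 and 42.1 CPM in vehicle series 2. The groups did not overlap, and the vehicle series did not overlap each other either. The log2 fold change was -1.90 ± 0.12 (SE, adjusted p = 4.74e-14), with -2.25 against series 1 and -1.56 against series 2. ZNF670 had 15.1, 11.1 and 13.8 CPM with mercuric chloride, against 39.7, 48.9 and 38.1 CPM in vehicle series 1 and 34.96, 32.9 and 33.1 CPM in series 2, also without overlap (-1.49 ± 0.13, adjusted p = 1.03e-10). The files hold a read-through symbol, ZNF670-ZNF695, on the same strand, so counts of ZNF670 are uncertain. Unnamed genes overlap ZNF217 on the opposite strand, and as the strand of counting is not given, their reads cannot be told apart from its own.

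The KRAB genes ZNF182 (5.99 to 9.81 CPM with mercuric chloride, against 18.7 to 25.5 CPM with vehicle), ZNF772 (4.02 to 6.75 CPM, against 13.3 to 20.9 CPM) and ZNF519 (3.10 to 4.36 CPM, against 7.64 to 11.5 CPM) fell to well under the vehicle range. Their log2 fold changes were -1.49 ± 0.15, -1.49 ± 0.21 and -1.43 ± 0.24. ZNF182 overlaps ZNF630 on the same strand and ZNF81 on the opposite strand. ZNF772 overlaps an unnamed gene on the same strand and ZNF519 unnamed genes on the opposite strand, so counts of these genes are uncertain. ZNF367, a gene with a role in the cell cycle, had 16.3, 16.6 and 19.2 CPM with mercuric chloride, against 38.7 to 56.8 CPM with vehicle (-1.40 ± 0.20, adjusted p = 7.32e-06). ZNF551, ZNF331 and ZNF773 fell by 1.29 ± 0.18, 1.24 ± 0.17 and 1.21 ± 0.27 on the log2 scale, each without overlap. ZNF133 was less even, with 2.87, 8.06 and 2.48 CPM with mercuric chloride, against 7.66 to 18.6 CPM with vehicle, so that the groups overlapped (-1.25 ± 0.35, adjusted p = 0.0291). Its call was lost in 4 of 9 fits that each left out 1 library and with limma-voom.

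**Figure D2:**
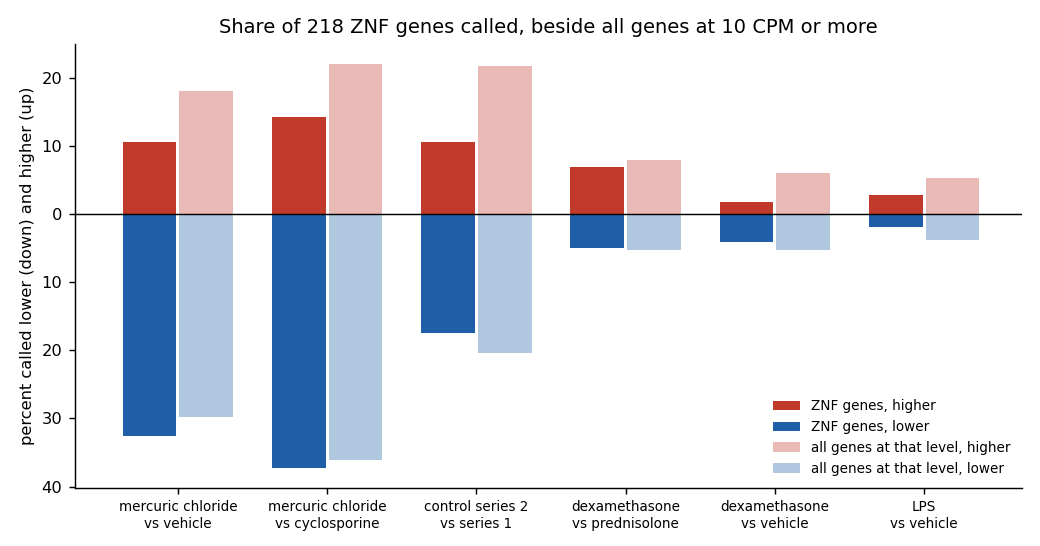
Percent of the 218 ZNF genes (full colour) and of all 9242 genes at 10 CPM or more in the controls (pale) called higher (bars up, red) and lower (bars down, blue) in 6 comparisons, on an axis in percent. With mercuric chloride 32.6% of the ZNF genes were lower and 10.6% higher, against 29.8% lower and 18.1% higher among the 9242 genes, which were not matched to the ZNF genes by level.

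Mercuric chloride was also compared directly with cyclosporine, which uses no control libraries. Mercuric chloride libraries were lower in 81 members, against 25.3% of all genes called lower, and higher in 31, against 25.4% of all genes called higher. Among genes at 10 CPM or more in the controls, 36.1% were lower and 22.0% higher, beside 37.2% and 14.2% of the members. The median was -0.24 for the members, -0.13 for genes at 10 CPM or more and -0.01 for all genes. With raw totals the median of all genes was -0.37, and 137 members were lower and 11 higher. ZNF669 (2.15 ± 0.17, adjusted p = 2.31e-14), ZNF697 (1.87 ± 0.18), ZNF267 (1.83 ± 0.11), ZNF385C (1.49 ± 0.14) and ZNF805 (1.08 ± 0.23) were the largest rises over cyclosporine on the log2 scale. ZNF217 (-1.61 ± 0.13, adjusted p = 2.04e-14), ZNF182 (-1.56 ± 0.17), ZNF589 (-1.40 ± 0.25), ZNF773 (-1.39 ± 0.30) and ZNF772 (-1.32 ± 0.23) were the largest falls. In this comparison ZNF106 had 299, 272 and 269 CPM with mercuric chloride and 245, 217 and 246 CPM with cyclosporine (0.24 ± 0.08, adjusted p = 0.0107), a direction that turned to -0.12 with raw totals and a call lost in 2 of 6 fits without 1 library. ZNF24 had 236, 221 and 241 CPM with mercuric chloride and 203, 190 and 202 CPM with cyclosporine (0.23 ± 0.10, adjusted p = 0.0482), which turned to -0.13 with raw totals and lost its call in 5 of 6 fits without 1 library.

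Position and protein type were then set beside the response to mercuric chloride, as a description with no test, beside 32.6% of all members lower and 10.6% higher and 20.1% of all genes lower and 21.8% higher. Of 107 members with the KRAB pattern 34 fell and 10 rose, with a median of -0.31, and of 109 members without it 36 fell and 13 rose, with a median of -0.16. Since the pattern can miss KRAB domains, this is not a clean split of KRAB genes from others. On chromosome 19, 26 of 83 members fell and 7 rose. On other chromosomes 45 of 135 fell and 16 rose. Members with 1 to 5 C2H2 patterns had 12 falls and 10 rises among 51, and those with 6 to 12 patterns had 36 falls and 7 rises among 90. Members over 12 patterns had 20 falls and 5 rises among 69. By level in the controls, 11 of 36 members at 50 CPM or more fell, 38 of 91 members between 20 and 50 CPM and 22 of 91 members between 10 and 20 CPM.

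Members often lie side by side, and 42 pairs are direct neighbours in the RefSeq order of protein-coding genes. In 11 pairs both genes were called with mercuric chloride, 9 times both lower, 0 times both higher and 2 times in opposite directions. Of all members 43.1% were called, beside 41.9% of all genes, and the pairs were not tested. No share of adjacent pairs over all genes is given, and a gene can belong to 2 pairs. The counts are thus a description and no result about position. On chromosome 19 the adjacent genes ZNF772, ZNF419, ZNF773, ZNF549 and ZNF550 all fell, with log2 fold changes of -1.49, -0.72, -1.21, -0.93 and -0.65. ZNF419 and ZNF773 share stretches of sequence (12.2% of the 50-base stretches of ZNF419), and ZNF549 and ZNF550 overlap on opposite strands, so these values are not independent. ZNF605, ZNF26 and ZNF84 on chromosome 12 fell together as well, with -0.61, -1.14 and -1.10. The pair ZNF670 and ZNF669 on chromosome 1 went apart, with -1.49 for ZNF670 and 2.10 for ZNF669. ZNF274, which recruits SETDB1 to the ends of other ZNF genes, rose (0.68 ± 0.14, adjusted p = 0.000655, and 0.28, not called, with raw totals) while its neighbour ZNF544 fell (-0.62).

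**Figure D3:**
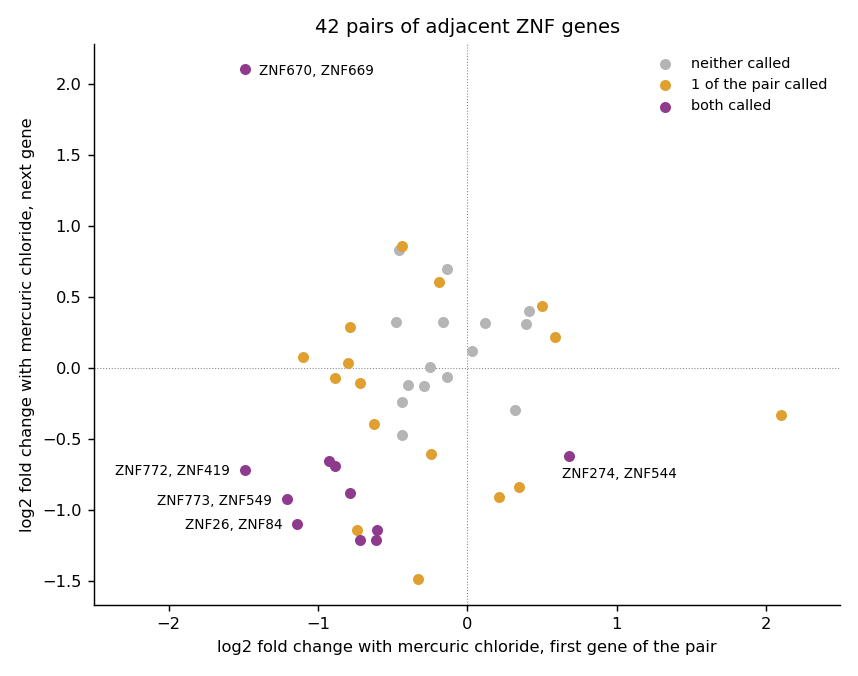
Log2 fold change with mercuric chloride against vehicle of the first gene (horizontal) and of the next gene (vertical) in 42 pairs of adjacent ZNF genes, each point 1 pair. Both genes were called in 11 pairs (purple), 9 of them in the lower left, and ZNF670 with ZNF669 is the only such pair in the upper left, at -1.49 and 2.10.

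To find single exceptions, each treatment was compared with the mean of the other 11 treatments. A member was singled out where this difference was called with a log2 size of at least 1 and the member was also called against vehicle in the same direction. There were 34 such cases. The rule does not require that a member moved in 1 treatment alone, and ZNF697 and ZNF366 were each singled out in more than 1. Mercuric chloride had 30 of the 218 members, with 6 higher and 24 lower. This is a smaller share than the 21.4% of all genes singled out by that rule. The 6 were ZNF267, ZNF669, ZNF697, ZNF385C, ZNF804A and ZNF805. LPS had 3, against 2.53% of all genes, namely ZNF697 and ZNF366 higher and ZNF395 lower. Dexamethasone had 1, ZNF366 higher, against 1.6% of all genes. The members' shares with LPS and dexamethasone were likewise smaller than those of all genes. No share of genes at 10 CPM or more in the controls is given for this rule. The other 9 treatments had 0. With raw totals the number was 71 instead of 34.

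The 24 lower cases with mercuric chloride reached from ZNF217 (-2.10 ± 0.11 against the other treatments) to ZNF689 (-1.002 ± 0.114). Besides genes named above they include ZNF692, ZNF296, ZNF26, ZNF84, ZNF573, ZNF850, ZNF569, ZNF525, ZNF252P, ZNF445, ZNF500, ZNF549 and ZNF589. ZNF445, which encodes a regulator of genomic imprinting, had 14.2, 16.8 and 18.99 CPM with mercuric chloride, against 27.97 to 39.3 CPM over the 6 vehicle libraries. ZNF296 had 12.2 to 14.8 CPM with mercuric chloride, against 34.7 to 40.3 CPM in vehicle series 1 and 19.7 to 24.8 CPM in series 2, so the size of its fall differed with the series (-1.47 and -0.74). ZNF692 had 12.2 to 14.4 CPM with mercuric chloride, against 23.8 to 41.7 CPM with vehicle. ZNF549 had a log2 fold change of -0.93 ± 0.27 against vehicle, with overlapping libraries (adjusted p = 0.0314), and lost its call in 4 of 9 fits without 1 library.

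**Figure D4:**
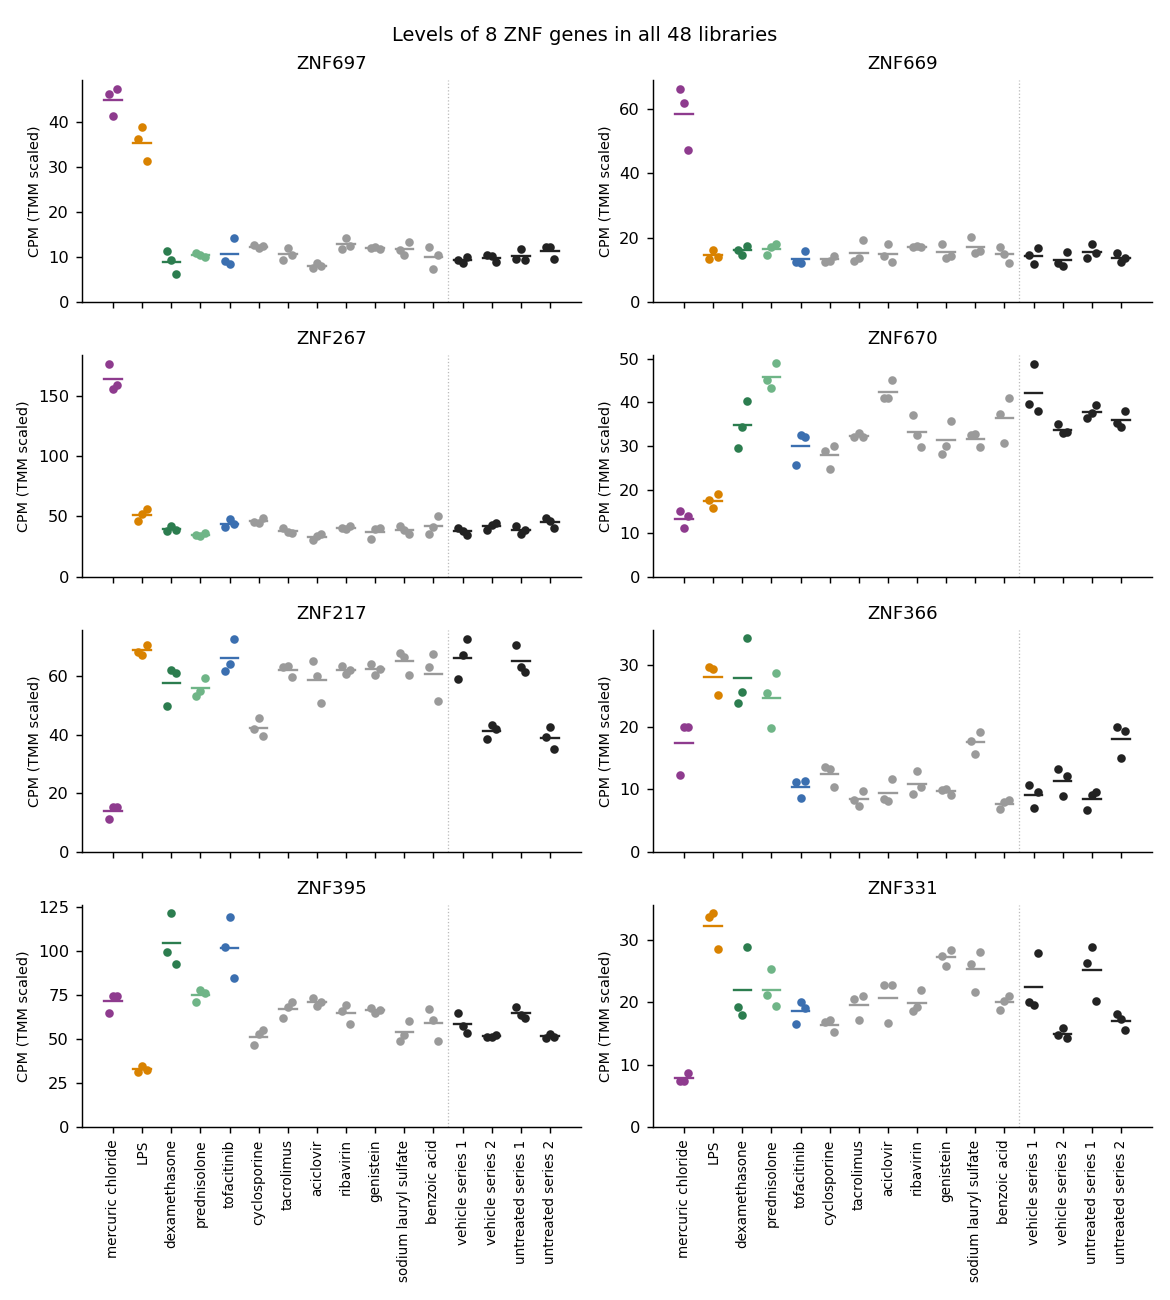
CPM after TMM scaling (vertical axes from 0) of 8 ZNF genes in all 48 libraries, with treatments left of the dotted line and vehicle and untreated controls right of it, points for libraries and bars for group means. ZNF669 and ZNF267 stand out in mercuric chloride alone, ZNF697 in mercuric chloride and LPS, and ZNF395 is highest with dexamethasone and tofacitinib and lowest with LPS.

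LPS, which activates monocytes through Toll-like receptor signalling, called 10 members, 6 higher (4.56% of all genes were called higher) and 4 lower (2.64% of all genes were called lower). Of genes at 10 CPM or more in the controls 5.31% were higher and 3.78% lower, beside 2.75% and 1.83% of the members. ZNF697 had 36.2, 39.0 and 31.3 CPM with LPS, against 8.71 to 10.5 CPM over the 6 vehicle libraries, without overlap (log2 fold change 1.89 ± 0.14, adjusted p = 1.69e-11). ZNF366, known as DC-SCRIPT for its place in dendritic cells and its binding to nuclear receptors, had 29.6, 29.4 and 25.1 CPM with LPS, against 10.7, 7.02 and 9.60 CPM in vehicle series 1 and 13.3, 8.88 and 12.1 CPM in series 2 (1.46 ± 0.16, adjusted p = 1.2e-06). Both were more than doubled in every LPS library relative to the vehicle mean. ZNF395, also named papillomavirus binding factor, had 31.3, 34.8 and 32.4 CPM with LPS, against 64.9, 57.6 and 53.1 CPM in vehicle series 1 and 50.8, 51.3 and 51.9 CPM in series 2 (-0.74 ± 0.10, adjusted p = 3.98e-05). ZNF670 fell with LPS too, to 17.5, 15.8 and 19.1 CPM, against 32.9 to 48.9 CPM with vehicle (-1.11 ± 0.11, adjusted p = 1.81e-07). Its neighbour ZNF669 had 13.4, 16.02 and 13.9 CPM with LPS, against 11.2 to 16.6 CPM with vehicle, within the vehicle range (0.09, interval -0.22 to 0.39). ZNF438 fell by 0.78 ± 0.11 on the log2 scale.

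The other LPS calls were less firm. ZNF331, a KRAB gene, had 33.7, 34.3 and 28.6 CPM with LPS, against 19.6 to 27.9 CPM in vehicle series 1 and 14.2 to 15.9 CPM in series 2 (0.81 ± 0.13, adjusted p = 0.0235), and lost its call in 4 of 9 fits without 1 library. ZNF513 (0.82 ± 0.17) and ZNF106 (0.30 ± 0.07) lost theirs in 3 of 9 fits. ZNF556 (-0.89 ± 0.25, adjusted p = 0.0415) lost its call in 7 of 9, and its LPS libraries, with 3.07, 6.84 and 11.2 CPM, overlapped vehicle. The count of 10 was 6 without LPS replicate 1, 5 without vehicle series 1 replicate 1 and 6 without vehicle series 1 replicate 3. The 5 that remained without vehicle series 1 replicate 1 were ZNF697, ZNF366, ZNF395, ZNF438 and ZNF670.

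Dexamethasone called 13 members, 4 higher (4.99% of all genes were called higher) and 9 lower (3.58% of all genes were called lower). Of genes at 10 CPM or more in the controls 6.08% were higher and 5.28% lower, beside 1.83% and 4.13% of the members. Without dexamethasone replicate 3 the count was 5, with ZNF366 and ZNF395 higher and ZNF704, ZNF273 and ZNF556 lower, beside 3.27% of all genes called higher and 1.91% lower without it. It was 26 without dexamethasone replicate 2 and 8 without vehicle series 2 replicate 1. ZNF366 had 23.8, 25.6 and 34.2 CPM with dexamethasone, against 7.02 to 13.3 CPM over the 6 vehicle libraries, without overlap (log2 fold change 1.45 ± 0.16, adjusted p = 2.4e-06). ZNF395 had 99.2, 122 and 92.6 CPM with dexamethasone, against 50.8 to 64.9 CPM with vehicle (0.93 ± 0.09, adjusted p = 9.72e-08). ZNF556, a KRAB gene, had 6.92, 3.68 and 6.84 CPM with dexamethasone, against 11.1 to 15.2 CPM with vehicle (-1.18 ± 0.26, adjusted p = 0.00501). These genes kept their side of the vehicle range in every dexamethasone library.

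Other dexamethasone calls were lost without replicate 3. ZNF146, whose protein consists almost wholly of zinc fingers, had 94.3, 84.8 and 26.9 CPM with dexamethasone, against 108 to 119 CPM with vehicle. Its log2 fold change was -0.71 ± 0.19 (adjusted p = 0.0302), and without replicate 3 it was -0.33 and not called. ZNF655 had 27.9, 34.7 and 52.5 CPM with dexamethasone, against 23.8 to 30.4 CPM with vehicle, with overlap. Its value of 0.54 ± 0.13 became 0.25, not called, without replicate 3. ZNF703, a corepressor partner known from breast cancer, had 17.0, 22.9 and 34.4 CPM with dexamethasone, against 7.88 to 15.0 CPM with vehicle (1.23 ± 0.19, and 0.92, not called, without replicate 3). ZNF761 had a log2 fold change of -0.66 ± 0.14, and -0.47, not called, without replicate 3.

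Prednisolone, the related glucocorticoid, called only ZNF366, 1 member beside 1.96% of all genes. ZNF366 had 25.5, 19.8 and 28.7 CPM with prednisolone, against 7.02 to 13.3 CPM with vehicle, without overlap (1.28 ± 0.16, adjusted p = 8.72e-05). ZNF395 had 71.1, 77.9 and 75.9 CPM with prednisolone, against 50.8 to 64.9 CPM with vehicle, all above the vehicle range but not called (0.45 ± 0.09, adjusted p = 0.0797).

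The glucocorticoids were compared directly as related steroids, dexamethasone carrying a fluorine atom and a methyl group that prednisolone lacks. Both were used at their CV90, and since the concentrations are not given, whether they match is unknown. Dexamethasone was higher in 15 members (5.48% of all genes were called higher) and lower in 11 (3.75% of all genes were called lower). Among genes at 10 CPM or more in the controls 7.88% were higher and 5.29% lower, beside 6.88% and 5.05% of the members. Without dexamethasone replicate 3 the 26 calls became 6, beside 2.22% of all genes called higher and 1.75% lower, and they became 9, 16 and 9 without prednisolone replicates 1, 2 and 3. ZNF366 did not differ beyond its error, with a log2 difference of 0.18 and an interval of -0.18 to 0.54. ZNF395 was higher with dexamethasone by 0.48 ± 0.11 (adjusted p = 0.00289), a call that holds without replicate 3, at 0.56. That call was lost with only the libraries compared in the fit, as were all calls of members in this comparison. ZNF318, a nuclear receptor coregulator, had 91.0, 91.0 and 116 CPM with dexamethasone, against 60.5, 71.9 and 61.5 CPM with prednisolone (0.62 ± 0.10, adjusted p = 5.47e-05). ZNF549 (0.84 ± 0.25), ZNF142 (0.75 ± 0.22), ZNF335 (0.62 ± 0.19) and ZNF780A (0.61 ± 0.19) were higher, and ZNF28 (-1.12 ± 0.25), ZNF556 (-0.91 ± 0.29), ZNF441 (-0.80 ± 0.22) and ZNF367 (-0.68 ± 0.20) lower, all of which lost their calls without replicate 3. ZNF761 was also lower (-0.77 ± 0.15) and remained called without it.

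**Figure D5:**
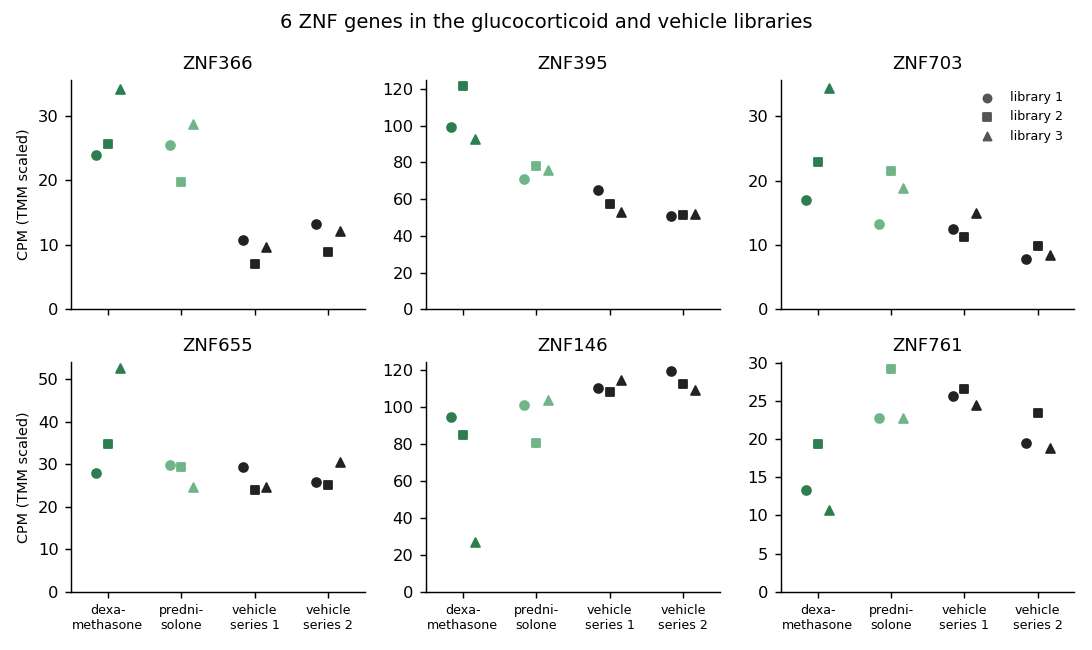
CPM after TMM scaling (vertical axes from 0) of 6 ZNF genes in the dexamethasone, prednisolone and vehicle libraries, with a marker shape for each library number. ZNF366 and ZNF395 lie above vehicle in all 3 dexamethasone libraries, whereas library 3 (triangles) sets the level of ZNF146 at 26.9 CPM and that of ZNF655 at 52.5 CPM.

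Tofacitinib, which blocks JAK kinases downstream of cytokine receptors, called 6 members, 4 higher and 2 lower. This is a share of 2.75%, beside 2.32% of all genes and 3.49% of genes at 10 CPM or more in the controls. ZNF395 had 102, 119 and 84.7 CPM with tofacitinib, against 50.8 to 64.9 CPM over the 6 vehicle libraries, without overlap (log2 fold change 0.89 ± 0.09, adjusted p = 1.5e-06). ZNF419 had 58.2, 60.3 and 52.5 CPM with tofacitinib, against 29.1 to 37.5 CPM with vehicle (0.73 ± 0.13, adjusted p = 0.00874). ZNF395 kept its call in all 9 fits without 1 library, and ZNF419 lost its call in 2 of 9. The other calls lost theirs more often, with ZNF546 (0.76 ± 0.15) and ZNF814 (0.62 ± 0.11) in 5 of 9 fits, ZNF556 (-1.03 ± 0.26) in 8 of 9 and ZNF684 (-0.38 ± 0.08) in 9 of 9. The count of 6 was 2 and 3 without tofacitinib replicates 1 and 3, 2, 1 and 2 without vehicle series 1 replicates 1, 2 and 3, and 3 without vehicle series 2 replicate 1.

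Across treatments, 3 members were called in 3 or more. ZNF366 rose with dexamethasone, prednisolone, LPS and mercuric chloride, although the last was the weakest, with 12.3, 20.05 and 20.02 CPM, against 7.02 to 13.3 CPM with vehicle, with overlap (0.77 ± 0.18, adjusted p = 0.0139, lost in 3 of 9 fits without 1 library and, at 0.37, with raw totals). For ZNF366 the untreated series 2 libraries, given below, had levels similar to those with mercuric chloride. The highest of these untreated libraries also lay above the lowest prednisolone library. ZNF395 rose with dexamethasone and tofacitinib and fell with LPS. With mercuric chloride ZNF395 had 64.8, 74.5 and 74.5 CPM, against 50.8 to 64.9 CPM with vehicle (0.38 ± 0.10, adjusted p = 0.0361), a call lost in 4 of 9 fits without 1 library and a direction that turned to -0.02 with raw totals. ZNF556 fell with dexamethasone, tofacitinib and LPS. These comparisons share the vehicle libraries, so their calls are not independent.

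The remaining 7 treatments called 0 members by edgeR's quasi-likelihood test, beside 0.0575% of all genes called with tacrolimus, 0.307% with sodium lauryl sulfate, 0.237% with aciclovir, 0.032% with benzoic acid, 0.237% with genistein, 0.147% with ribavirin and 0.831% with cyclosporine. At an unadjusted p under 0.05 there were 20 members with aciclovir (9.17%, beside 5.47% of all genes), 18 with ribavirin (8.26%, beside 5.81%), 13 with genistein (5.96%, beside 5.26%) and 6 with cyclosporine (2.75%, beside 5.13%). There were 5 with tacrolimus (2.29%, beside 2.69%), 4 with sodium lauryl sulfate (1.83%, beside 3.1%) and 4 with benzoic acid (1.83%, beside 1.16%). DESeq2 called 2 members with genistein and 0 with the other 6 treatments, and limma-voom called 0 in all 7. The members' lowest values were -1.03 for ZNF556 with genistein and -0.87 for ZNF28 with cyclosporine, and the highest was 0.78 for ZNF366 with sodium lauryl sulfate. ZNF366 had 17.8, 15.6 and 19.2 CPM with sodium lauryl sulfate, all above the 6 vehicle libraries at 7.02 to 13.3 CPM, without passing the test (adjusted p = 0.401). The untreated series 2 libraries had similar levels, at 20.03, 15.1 and 19.3 CPM.

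The control series, which hold no chemical but DMSO, were compared with each other. Control series 2 (vehicle and untreated, 6 libraries) was higher than series 1 in 23 members, beside 15.0% of all genes, and lower in 38, beside 15.2% of all genes. Of genes at 10 CPM or more in the controls 21.8% were higher and 20.4% lower, beside 10.6% and 17.4% of the members. The largest difference upward was in ZNF746, the parkin-interacting repressor PARIS, with 22.7 to 29.5 CPM in series 2 and 11.9 to 14.1 CPM in series 1 (log2 difference 1.01 ± 0.13, adjusted p = 5.81e-08). ZNF366 (0.71 ± 0.14), ZNF830 (0.70 ± 0.09), ZNF33A (0.65 ± 0.10) and ZNF511 (0.58 ± 0.10) were higher as well. ZNF217 had 35.1 to 43.2 CPM in series 2 and 58.9 to 72.6 CPM in series 1 (-0.71 ± 0.08, adjusted p = 4.29e-10). ZNF28 (-0.66 ± 0.17), ZNF772 (-0.60 ± 0.13), ZNF668 (-0.60 ± 0.13) and ZNF331 (-0.58 ± 0.11) were lower in series 2. Several genes named for a treatment thus also differ between the control series. Both series had to be passed because the labels do not tie a treatment to a series.

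No member passed the test between vehicle and untreated cells. By edgeR's quasi-likelihood test 0 members were called, beside 0.0% of all genes, with 6 members (2.75%, beside 2.96% of all genes) at an unadjusted p under 0.05 and 0 called by DESeq2 or limma-voom. The largest values were -0.30 for ZNF550 and 0.28 for ZNF28.

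Among 10 ZNF genes with known roles in RNA, ribosomes or the spindle, 9 were members, and mercuric chloride raised 3 and lowered 1. With 41.9% of all genes called, this share is near the background and says nothing particular to the list. The tenth, ZNF346, a binder of double-stranded RNA, was under the limit. ZNF622 is described above. ZNF326, a subunit of the DBIRD complex that couples transcription to splicing, had 98.1, 94.4 and 89.99 CPM with mercuric chloride, against 48.3, 43.5 and 45.6 CPM in vehicle series 1 and 71.5, 77.2 and 73.3 CPM in series 2 (log2 fold change 0.69 ± 0.09, adjusted p = 0.00559, and 0.29, not called, with raw totals). It also differed between the control series by 0.56 ± 0.07. ZNF106 had 299, 272 and 269 CPM with mercuric chloride, against 207 to 218 CPM with vehicle (0.41 ± 0.07, adjusted p = 6.23e-05, and 0.01, not called, with raw totals). ZNF598, a ubiquitin ligase that senses collided ribosomes, had 56.5, 55.4 and 43.5 CPM with mercuric chloride, against 59.2 to 74.8 CPM with vehicle (-0.38 ± 0.10, adjusted p = 0.0241, lost in 3 of 9 fits without 1 library).

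The others of this list did not pass against vehicle with mercuric chloride. ZNF593, the counterpart of the yeast ribosome export factor Bud20, had 26.8, 25.9 and 25.6 CPM, against 34.0 to 42.01 CPM with vehicle, all below the vehicle range (-0.50 ± 0.17, adjusted p = 0.0949). ZNF638 (-0.22), ZNF207, the spindle protein BuGZ (-0.10), ZNF277 (0.31), ZNF706 (-0.32) and ZNF346 (-0.23) had overlapping libraries. With LPS 1 gene of the list, ZNF106, rose, beside 4.56% of all genes called higher. It had 253, 260 and 265 CPM with LPS, against 207 to 218 CPM with vehicle, and lost its call in 3 of 9 fits without 1 library.

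Of 20 genes for KRAB corepressors and heterochromatin proteins, 6 fell and 2 rose with mercuric chloride, with a median of -0.22. This is near the 41.9% of all genes called and below the 47.8% of genes at 10 CPM or more in the controls, and is no result about the list as a whole. SETDB1, the methyltransferase, had 56.7, 86.9 and 66.7 CPM with mercuric chloride, against 142 to 161 CPM over the 6 vehicle libraries (log2 fold change -1.13 ± 0.10, adjusted p = 5.39e-12). UHRF1, which couples DNA methylation to replication, had 24.1, 25.7 and 26.01 CPM, against 44.9 to 72.5 CPM with vehicle (-1.17 ± 0.10, adjusted p = 1.42e-09). FAM208A, a subunit of the HUSH silencing complex, had 44.1 to 52.8 CPM, against 83.4 to 102 CPM with vehicle (-0.91 ± 0.08). None of these 3 overlapped vehicle. CHD3, a nucleosome remodeller, had 214, 245 and 192 CPM with mercuric chloride, against 97.1 to 121 CPM with vehicle (1.01 ± 0.10, adjusted p = 6.81e-08). TRIM28 itself had 149, 148 and 117 CPM with mercuric chloride, against 221 to 239 CPM in vehicle series 1 and 154 to 168 CPM in series 2, and was not called (-0.48 ± 0.12, adjusted p = 0.185).

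In the other treatments the corepressor list had 2 calls, both with dexamethasone, beside 8.57% of all genes called and 11.4% of genes at 10 CPM or more in the controls. CBX3, a heterochromatin protein, had 739, 749 and 874 CPM with dexamethasone, against 520 to 649 CPM with vehicle (0.39 ± 0.08, adjusted p = 0.037, and 0.31, adjusted p = 0.268, without dexamethasone replicate 3). RBBP7, a histone-binding subunit, had 128, 159 and 87.0 CPM with dexamethasone, against 159 to 175 CPM with vehicle, with overlap and the lowest value in replicate 3 (-0.40 ± 0.09, adjusted p = 0.0111). Without that replicate it was -0.20 and not called (adjusted p = 0.324). Between the control series 8 of the 20 genes were higher and 5 lower in series 2, beside 15.0% of all genes higher and 15.2% lower, and 21.8% higher and 20.4% lower among genes at 10 CPM or more in the controls.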

How the data were processed

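RNA of THP-1 cells was sequenced in 48 libraries, 3 in each of 16 groups. The authors deposited raw read counts per gene symbol, 1 file a library; Bowtie2, bedtools and hg19 (GRCh37) are named per the submitters' processing notes, without versions, and the strand of counting is not given in the sources used here. Symbols on several rows were summed, ZNF26 and ZNF84 among the members. Libraries held 5952817 to 11496950 counts.

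All 15642 genes passing edgeR's filter were fitted in 1 model over all 48 libraries with TMM scaling and the quasi-likelihood test (R 4.3.3, edgeR 4.0.16, limma 3.58.1), with p-values adjusted over all genes by Benjamini-Hochberg. A treatment called a gene where the adjusted p was under 0.05 against both vehicle series in the same direction. The larger p is printed, and the gap between the series is not in the SE. Whether replicates are separate cultures is not in the labels; the p-values rest on the spread among these libraries, which may be technical. Of 48 pairs of replicates 0 were identical, with chi-square per degree of freedom of 2.18 to 45.8.

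The result of 1 marker list is not reported here. Alternatives were other scalings, DESeq2 1.42.0, limma-voom, other filters, control sets and CPM limits, a replicate block and leaving out each library. The members and gene lists were chosen with earlier results of these data known. Genes are named by rank: the 10 largest called changes of each sign for mercuric chloride, 4 for other treatments, 5 for direct and control comparisons, every member singled out, the 5 highest and those next to the limit, and the gene lists. ZNF274, ZNF503, ZNF544, ZNF550, ZNF605, ZNF627, ZNF704 and the extremes of treatments without calls were chosen after their values were seen, as were the motifs. The same holds for the ZNF symbols under the limit that are named in the other observations. Protein patterns come from GENCODE v29 translations, and the KRAB pattern was widened after its first matches were seen.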

Additional observations from a re-analysis of the deposited data

Results flagged for a closer look

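With all libraries, 5 members were raised by a treatment and lowered by another. They were chosen for these opposite calls against the same vehicle libraries. The difference between these treatments passed edgeR's quasi-likelihood test in each case (Benjamini-Hochberg adjusted over all genes), which follows from that choice. The p-values of these differences are therefore only a description, and no share of all genes is given beside the 5. ZNF331 differed most between LPS and mercuric chloride, by a log2 difference of 2.05 ± 0.18 (SE, adjusted p = 3.29e-13), with 28.6 to 34.3 CPM with LPS and 7.28 to 8.67 CPM with mercuric chloride. ZNF395 was higher than with LPS by 1.67 ± 0.11 with dexamethasone (1.75 ± 0.12 without dexamethasone replicate 3), by 1.63 ± 0.11 with tofacitinib and by 1.12 ± 0.12 with mercuric chloride; its rise with mercuric chloride over vehicle turned to -0.02 with raw totals. ZNF419 was higher with tofacitinib than with mercuric chloride by 1.45 ± 0.16, with 52.5 to 60.3 CPM against 18.3 to 25.2 CPM.

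ZNF274 and ZNF503 were higher with mercuric chloride than with dexamethasone. ZNF274 had 30.3, 36.2 and 32.2 CPM with mercuric chloride, 14.3, 13.97 and 11.4 CPM with dexamethasone and 19.01 to 21.3 CPM with vehicle, a difference of 1.31 ± 0.17 (adjusted p = 8.33e-09); its rise over vehicle was 0.28 and not called with raw totals. ZNF503 had 92.0, 93.3 and 92.1 CPM with mercuric chloride, 37.9, 39.8 and 39.3 CPM with dexamethasone and 46.3 to 60.1 CPM with vehicle, a difference of 1.24 ± 0.10 (adjusted p = 4.03e-14). ZNF503 overlaps its antisense gene ZNF503-AS1, and reads of both cannot be told apart. Neither fall with dexamethasone against vehicle is called without dexamethasone replicate 3, where ZNF274 was at -0.53 (adjusted p = 0.0931) and ZNF503 at -0.48 (adjusted p = 0.0724), and that of ZNF503 was lost in 4 of 9 fits without 1 library. Without that replicate the differences between mercuric chloride and dexamethasone were 1.21 ± 0.19 for ZNF274 (adjusted p = 3.4e-07) and 1.24 ± 0.12 for ZNF503 (adjusted p = 5.48e-13). None of these members had overlapping libraries between the 2 treatments compared.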

How the results depend on the processing

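Counts of members called depended most on the control. Against the mean of the 4 control groups they were 79 for dexamethasone, 42 for aciclovir, 34 for LPS, 34 for tofacitinib, 27 for prednisolone, 24 for genistein, 17 for cyclosporine, 16 for ribavirin, 10 for tacrolimus, 9 for sodium lauryl sulfate and 1 for benzoic acid. Against vehicle series 1 alone they were 42 for cyclosporine, 39 for dexamethasone, 22 for tofacitinib, 21 for LPS, 5 for ribavirin, 4 for genistein, 3 for benzoic acid, 2 for prednisolone and 1 for sodium lauryl sulfate. Against vehicle series 2 alone they were 66 for dexamethasone, 57 for aciclovir, 48 for LPS, 46 for prednisolone, 44 for genistein, 39 for tofacitinib, 37 for sodium lauryl sulfate, 34 for tacrolimus, 33 for ribavirin, 8 for benzoic acid and 1 for cyclosporine. These settings drop the demand to pass both series. Between the control series themselves, 42.2% of genes at 10 CPM or more in the controls were called. No share of all genes is given beside the counts in this section, so they do not separate a response of ZNF genes from a shift of all genes. With only the libraries compared in the fit, counts were 6 for aciclovir, 6 for genistein, 4 for dexamethasone, 3 for prednisolone, 2 for sodium lauryl sulfate, 1 for cyclosporine, 1 for ribavirin and 0 for dexamethasone against prednisolone. Without the filter on low counts aciclovir had 1 and tofacitinib 3, and DESeq2 gave 2 for genistein. With a limit of 20 CPM, which keeps 127 members, counts were 62 for mercuric chloride, 72 for mercuric chloride against cyclosporine, 8 for dexamethasone, 6 for LPS and 0 for prednisolone. With 5 CPM, 306 members, ribavirin had 1. Members singled out numbered 71 with raw totals.

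With each library left out in turn, counts were 82 to 92 for mercuric chloride, 96 to 105 for mercuric chloride against cyclosporine, 5 to 26 for dexamethasone, 6 to 39 for dexamethasone against prednisolone, 5 to 9 for LPS, 1 to 4 for tofacitinib, 1 for prednisolone, 51 to 57 between the control series, 31 to 37 singled out and 0 elsewhere. Of 426 alternative counts 361 stayed within 1.5 times the reported count. Of 3080 alternative values of named members 2804 kept direction and call, 273 lost the call and 3 changed sign, all with raw totals (ZNF395 with mercuric chloride at -0.0195 against vehicle; ZNF106 at -0.12 and ZNF24 at -0.13 with mercuric chloride against cyclosporine). The cause was not tested. Leaving dexamethasone replicate 3 out of the KLF, corepressor and between-treatment values, the ZNF symbols under the limit and the shares of all genes was chosen after the data were seen. The replicate numbers share no more than a number (correlation of deviations -0.22 to 0.35, 13 of 48 libraries closest to their own number); with the replicate block, counts were 94 for mercuric chloride, 110 against cyclosporine, 61 between the control series, 27 for dexamethasone against prednisolone, 13 for dexamethasone, 9 for LPS, 5 for tofacitinib, 1 for prednisolone, 0 in the other treatments and for vehicle against untreated, and 34 singled out.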

Other observations

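ZNF symbols under the limit of 10 CPM moved with mercuric chloride too. Of 246 tested, 42 fell and 20 rose, with a median log2 fold change of -0.24. These are 17.1% and 8.13%, beside 6.16% lower and 27.1% higher among all 6400 tested genes under the limit, whose median was 0.42. A gene of so low a level in the controls can pass the filter on low counts through the treated libraries, so the counts are a description and support nothing. ZNF250 had 73.9, 75.2 and 59.4 CPM with mercuric chloride, against 4.62 to 7.44 CPM over the 6 vehicle libraries, without overlap (3.52 ± 0.23, adjusted p = 1.24e-13 by edgeR's quasi-likelihood test). ZNF280A had 17.1 to 20.3 CPM with mercuric chloride, against 0.829 to 4.39 CPM with vehicle (3.30 ± 0.27), and ZNF846 had 8.26 to 12.3 CPM, against 0.646 to 2.16 CPM (3.13 ± 0.47). Larger values, of 6.97, 5.02 and 4.92, were those of ZNF844, ZNF677 and ZNF502, with at most 0.235 CPM in any vehicle library. The deepest falls called were in ZNF775 (-2.74 ± 0.42) and ZNF536 (-2.68 ± 0.59). In the other treatments these 246 symbols had 4 falls with dexamethasone (1 without dexamethasone replicate 3), 1 rise with LPS and 1 fall with ribavirin. Among all tested genes under the limit 1.12% fell with dexamethasone, 3.48% rose with LPS and 0.0312% fell with ribavirin.

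Other zinc finger families are given beside 21.8% of all genes called higher and 20.1% lower with mercuric chloride, and 18.1% higher and 29.8% lower among genes at 10 CPM or more in the controls. Of 26 ZBTB genes, which join zinc fingers to a BTB domain, 9 rose and 6 fell, with a median of 0.15. Of 9 ZFP genes 3 rose and 4 fell, and of 8 KLF genes, the Krüppel-like factors, 2 rose and 2 fell. With dexamethasone 5 of the 8 KLF genes rose (KLF3, KLF6, KLF7, KLF9 and KLF13), with a median of 0.63 over the 8, beside 4.99% of all genes called higher and 6.08% of those at 10 CPM or more. Without dexamethasone replicate 3, KLF3 was at 0.47 and lost its call (adjusted p = 0.192), whereas KLF6 (0.97), KLF7 (1.34), KLF9 (2.51) and KLF13 (0.83) remained called. With LPS, KLF6 and KLF13 rose, beside 4.56% of all genes called higher and 5.31% of those at 10 CPM or more. The families were set beside the ZNF genes without a test of the difference.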
